A study of Rattus norvegicus with 4 samples.

Results

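The soleus of rats fed genistein was compared between the leg that had lost its nerve and the sham-operated leg. Genistein is an isoflavone of soy that can bind oestrogen receptors, and the soleus is a slow postural muscle of the hindlimb. The comparison sets 1 array, titled denervated, against 1 array, titled sham, of the 4 in the series; the other 2 come from rats on a control diet. All rats were male Wistar animals, 10 weeks old at the start and given as 14 weeks old in the labels. The genistein group ate an AIN-93G diet with 0.5 g of genistein per kg (0.05% of the diet), and the control group a modified AIN-93G diet in which corn oil took the place of soybean oil. Diets lasted 24 days, the left sciatic nerve was excised on day 14 while the right leg had a sham operation, and muscle was collected 10 days after that. RNA of 8 rats was pooled for each array, and within a diet both pools come from the same rats, 1 leg each. No group has a replicate, so no value below carries an error of its own, no test was run, and a difference describes these pools and not other animals. The field for the treatment group calls the genistein sham sample denervated and the control denervated sample sham, against their titles, source names and descriptions. Groups were taken from the titles.

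A motor nerve keeps a muscle fibre in its adult state through the activity it imposes and the factors it releases at the endplate. Without it, fibres are known to spread acetylcholine receptors over their surface, to turn on the myogenic transcription factors Myod1 and Myog, and to lose protein mass through the ubiquitin and lysosomal systems. In a slow muscle the steady activity also maintains the slow contractile proteins, the mitochondria and the stretch-sensing proteins of the sarcomere.

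Each array gave a deposited signal for 31099 probe sets, from which 14217 genes with 1 symbol each could be read. The median signal was 129.9 units on the genistein sham array and 132.5 on the denervated array, and 60.8% and 60.1% of probe sets lay above a floor of 78.9 units. Signals under that floor were raised to it, and a gene was taken as measured if it exceeded the floor on the sham array, the denervated array or both. Actin probes at the 3′ end over those at the 5′ end, a ratio that grows as RNA breaks down, gave 2.32 on the sham and 2.76 on the denervated array, and Gapdh probes gave 1.20 and 1.13. The part of RNA quality in the results was not tested. The markers that check the labels went with the titles. Chrng was at 28.0 units on the sham array and 1046 on the denervated array, Pvalb at 218 and 11911, and Ankrd2 at 23942 and 334. The slow soleus markers Myh7, Myl3, Tnnt1, Atp2a2 and Mb were all present on the sham array, between 35165 and 46466 units.

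Denervated muscle differed from sham in 1246 of 10810 measured genes at 2-fold or more (11.5%). Of these, 536 genes were higher (4.96% of those measured) and 710 lower (6.57%). Counts of list members given below are to be read beside these shares. Differences of 16-fold or more, a log2 ratio of 4, were seen in 12 genes that were higher and 10 that were lower. The median log2 ratio of all measured genes was 0.02, and the spread across genes (SD) was 0.72. As guides to scatter, log2 ratios of a gene's several probe sets varied about their mean with an SD of 0.41 (2975 genes), and the 2 sham arrays, which differ by diet, had an SD of 0.28 with 66 of 10819 genes 2-fold apart. Neither guide covers the scatter between animals. All these ratios use the signals as deposited. Scaling the arrays to the hybridisation controls, which are added with the sample, instead moved the median of all genes to 0.48, so gene groups are described relative to all genes. Counts of members above or below 0 hold for the deposited scale. Relative to all genes none of the 83 lists turned its direction with this scaling, although 33 list medians changed sign in absolute terms.

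**Figure D1:**
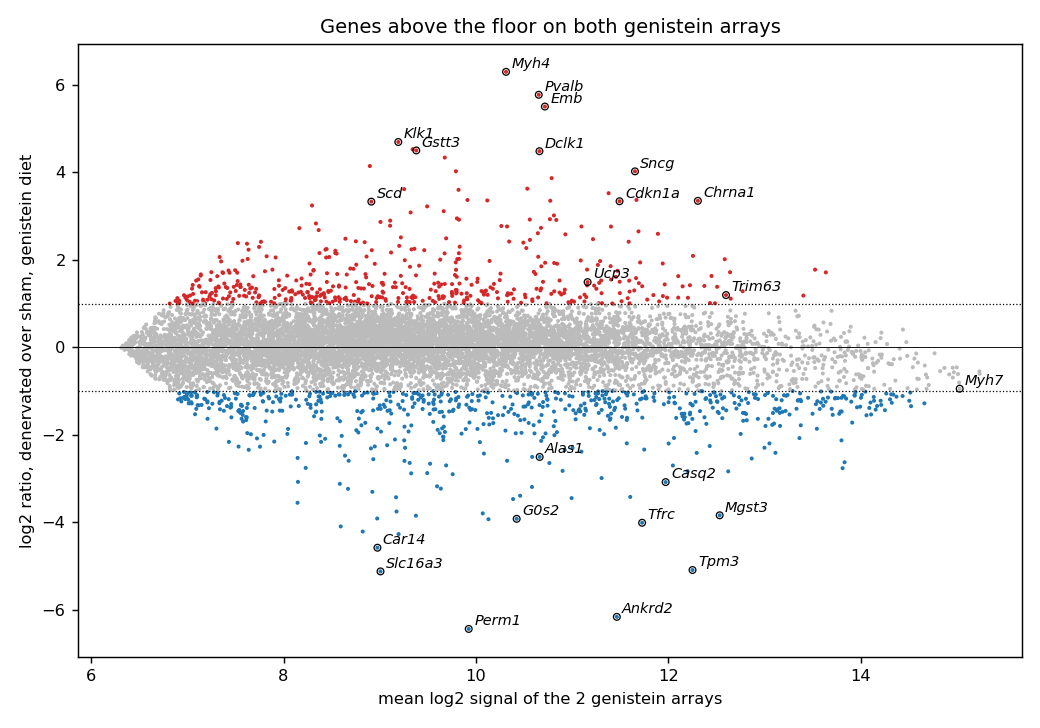
Each point is a gene above the floor on both genistein arrays, with its mean log2 signal on the x axis and its log2 ratio of denervated over sham on the y axis. Red points are at least 2-fold higher and blue points at least 2-fold lower, the dotted lines mark 2-fold, and the named genes run from Myh4 at 6.30 to Perm1 at -6.44.

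The acetylcholine receptor of muscle is a ring of 5 subunits whose gamma chain belongs to the fetal form and whose epsilon chain replaces it at the adult endplate. All 5 genes read higher on the denervated array, 4 of them by at least 2-fold, against 4.96% of all measured genes. Chrna1, the alpha subunit that carries the binding sites for acetylcholine, was at 1589 units on the sham array and 16186 on the denervated array, 10.2-fold higher. Chrnd, the delta subunit, went from 1708 to 6552 units (3.84-fold), and Chrnb1, the beta subunit, from 577 to 1379.7 (2.39-fold). The fetal Chrng was at least 13.3-fold higher. Its adult counterpart Chrne was at 16.6 units in sham and 95.3 in denervated muscle, at least 1.21-fold higher. The adult subunit was thus under the floor on 1 array and near it on the other.

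Myogenic factors are known to bind the E-box, a motif of 6 bases written CANNTG, in the promoters of these receptor genes. RefSeq promoters of the GRCr8 assembly were found for all 5. The 250 bases before each start are shown because all 5 genes read higher, 5′ to 3′ on the strand of the gene, with every E-box in capitals:
Chrna1, chr3:78877354-78877603, minus strand: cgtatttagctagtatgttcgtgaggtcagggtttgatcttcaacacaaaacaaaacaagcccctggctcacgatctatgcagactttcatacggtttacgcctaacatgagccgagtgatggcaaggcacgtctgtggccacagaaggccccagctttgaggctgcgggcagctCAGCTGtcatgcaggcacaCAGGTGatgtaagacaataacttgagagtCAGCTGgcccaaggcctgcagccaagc
Chrnb1, chr10:55015108-55015357, minus strand: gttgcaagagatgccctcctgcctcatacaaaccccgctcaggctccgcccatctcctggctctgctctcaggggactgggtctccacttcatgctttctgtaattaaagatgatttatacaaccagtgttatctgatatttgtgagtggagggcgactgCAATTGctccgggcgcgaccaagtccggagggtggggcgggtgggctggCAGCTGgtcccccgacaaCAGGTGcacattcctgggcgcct
Chrnd, chr9:95310066-95310315, plus strand: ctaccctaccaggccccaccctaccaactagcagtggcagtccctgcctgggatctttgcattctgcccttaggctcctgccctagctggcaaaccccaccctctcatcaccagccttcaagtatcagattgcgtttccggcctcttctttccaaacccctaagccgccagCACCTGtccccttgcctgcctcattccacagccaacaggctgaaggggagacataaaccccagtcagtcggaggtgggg
Chrng, chr9:95325734-95325983, plus strand: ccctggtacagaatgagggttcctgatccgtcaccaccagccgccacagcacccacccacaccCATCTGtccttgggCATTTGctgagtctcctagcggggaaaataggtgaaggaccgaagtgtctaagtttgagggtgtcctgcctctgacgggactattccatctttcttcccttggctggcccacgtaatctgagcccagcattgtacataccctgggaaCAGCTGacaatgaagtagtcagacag
Chrne, chr10:55834155-55834404, minus strand: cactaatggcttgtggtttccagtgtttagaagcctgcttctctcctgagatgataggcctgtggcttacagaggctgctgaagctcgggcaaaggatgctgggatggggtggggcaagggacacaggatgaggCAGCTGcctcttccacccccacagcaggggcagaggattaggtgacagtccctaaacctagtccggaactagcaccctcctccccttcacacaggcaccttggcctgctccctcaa
The motif reads the same on both strands, and both were searched. Chrna1, Chrnb1 and Chrng each held 3 E-boxes, and Chrnd and Chrne 1 each. The motif is common: 65.2% of the 27457 promoters in the table held it, as did 56.4% of the 9022 found for measured genes, 55.7% of the 442 promoters found for genes at least 2-fold higher and 60.8% of the 592 for genes at least 2-fold lower. The form CAGCTG, which is included in CANNTG, stood in 4 of the 5 receptor promoters, in 11.9% of all promoters, in 12.6% of those of measured genes, in 15.2% of those of the higher genes and in 16.9% of those of the lower genes. The match describes the letters in these windows and nothing about a factor bound there.

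Transcription factors of the myogenic family included some of the larger differences. Myod1 was at 422 units on the sham array and 5211 on the denervated array (12.3-fold), and Myog at 2373 and 10099 units (4.26-fold). Of the 9 measured myogenic factors and Id proteins, 5 were at least 2-fold higher and 0 lower, with a median log2 ratio of 1.06. Id3, an inhibitor that pairs with such factors, went from 715 to 1648 units, and Six4, a homeobox factor of muscle, from 2073 to 4512. Hdac4, a histone deacetylase that is known to carry the loss of nerve activity to the nucleus, was at 202 units in sham and 1506 in denervated muscle (7.44-fold). Runx1, a transcription factor of denervated muscle, went from 1547 to 9342 units (6.04-fold). In the list of histone deacetylases and their partners, these were the 2 genes of 9 past 2-fold. Hdac5, a close relative of Hdac4, was at 927 and 669 units, a log2 ratio of -0.47 that became 0.01 under hybridisation control scaling.

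**Figure D2:**
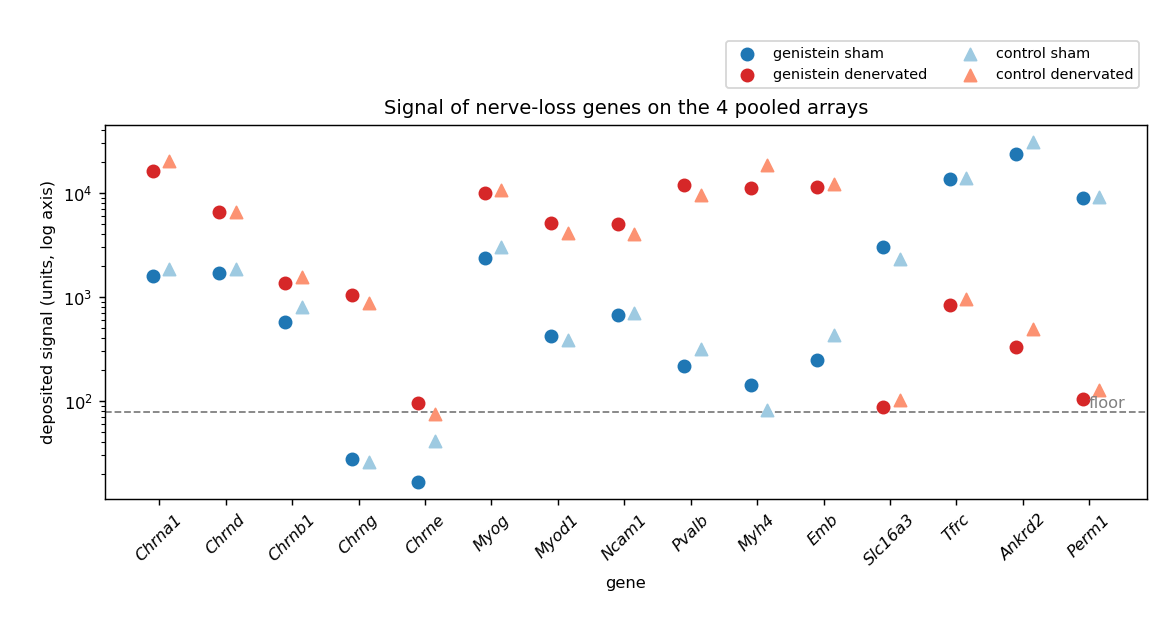
Deposited signal of 15 genes on the 4 arrays, on a log axis, with circles for the genistein diet, triangles for the control diet, blue for sham and red for denervated muscle. The dashed line is the floor of 78.9 units. For the 5 receptor subunits and the genes from Myog to Emb the red points lie above the blue ones, and for Slc16a3, Tfrc, Ankrd2 and Perm1 they lie below.

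At the endplate, synapse genes went in both directions. Lrp4, the receptor for agrin, was at 349 and 1959.8 units (5.62-fold higher), and Erbb2, a receptor for neuregulin, went from 68.2 units, under the floor, to 318. Lower were Colq, the collagen tail that anchors acetylcholinesterase (509 to 206 units), and Etv5, a transcription factor of synaptic nuclei (220.0 to 87.7). The 12 measured members of that list had a median of 0.02, at the median of all genes. Among adhesion and guidance genes, 3 of 12 were at least 2-fold higher. Emb, embigin, a surface glycoprotein that accompanies monocarboxylate transporters, was at 250.0 units on the sham array and 11342 on the denervated array (45.4-fold). Ncam1, the neural cell adhesion molecule that denervated fibres display, went from 666 to 5013 units on its brightest probe set (7.52-fold, log2 ratio 2.91). Its other probe sets were under the floor in sham and gave log2 ratios of at least 0.39 and at least 1.23. Bdnf, a neurotrophin, was lower (204 to 92.1 units), and Ntrk2, the receptor for that ligand, was higher (151 to 380.2 units on a probe set with a log2 ratio of 1.33, against 0.07 on its other probe set).

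On the genistein diet a group of genes exceeded the floor only in the denervated muscle. There were 421 measured genes at or under the floor on the sham array, and 67 of them were at least 2-fold above it on the denervated one. The brightest was Col19a1, which encodes a collagen chain of basement membrane zones, at 18.6 units on the sham array and 1807 on the denervated array, at least 22.9-fold higher. Prrt4 went from 60.4 to 1122 units (at least 14.2-fold), and Lama5, a laminin chain, from 66.8 to 696 (at least 8.82-fold). The other measured probe sets of Prrt4 and Lama5, also under the floor in sham, gave log2 ratios of at least 0.56 and at least 0.01. Col25a1, a membrane collagen known for its role in the innervation of muscle, was at 72.4 and 619 units. Kcnn3, the small-conductance potassium channel SK3 that appears in denervated fibres, was at 63.4 and 614 (at least 7.78-fold). The other brightest genes of this kind, besides Chrng, were S100a3, Tmem158, Tmem9, Cbs, Spata13, Bcl3, Plekhh1, Pcp4 and Ubd, between 370.4 and 795 units. Cbs, an enzyme that makes cystathionine from homocysteine, went from 78.8 to 547 units, and Ubd, a ubiquitin-like modifier, from 19.8 to 370.4. The sham signals of Cbs and S100a3 (78.9 units) lay at the floor. On the control diet Tmem9 (183.1 units), Lama5 (133.9), Bcl3 (107.3), S100a3 (105.6), Kcnn3 (99.2) and Cbs (85.4) exceeded it in sham muscle as well. The other genes named here were under it there.

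The reverse was also seen: 596 measured genes were at or under the floor on the denervated array, 64 of them at least 2-fold lower than in sham. Asb18, a member of the ankyrin and SOCS box family, stood out at 2288 units on the sham array and 34.4 on the denervated array, at least 29.0-fold lower. The next brightest was Lgi1, a secreted protein of synapses in the brain, at 632 and 73.7 units. Rd3l (567 to 60.1 units), Dhrs11, an oxidoreductase (545 to 53.7), and Efr3b, a membrane scaffold for a lipid kinase (417 to 11.3), had the same course. Others in this set were C5h1orf127, Prcd, Cpne7, Hpdl, Phf24, Spata20, Col10a1, Emx2, Dusp8 and Doc2g, with sham signals between 291 and 602 units. For all these genes the fold is a lower bound, since the denervated signal lies under the floor.

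The ion systems of the fibre membrane went in both directions. Of 7 sodium-potassium pump genes 3 were at least 2-fold lower and 0 higher. They were Atp1b4, a muscle beta subunit relative (825 to 97.8 units), Atp1b1, a beta subunit (10767 to 4336), and Fxyd1, the pump regulator phospholemman (8683 to 4102). Among channels, Scn4b, a beta subunit of sodium channels, was at 20464 units on the sham array and 3844 on the denervated array (5.32-fold lower). The potassium channel Kcnc4 was higher (458 to 939 units). The 9 measured channel genes thus held 2 higher, with Kcnn3, and 1 lower.

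Calcium handling genes differed widely from each other. Pvalb, parvalbumin, which buffers calcium in fast fibres, was 54.7-fold higher, and Casq2, the slow and cardiac calsequestrin, went from 11701 to 1382 units (8.47-fold lower). Jph2, which joins the surface membrane to the calcium store, was at 3443 and 781 units, and the calcium release channel Ryr3 at 835 and 224. Higher were Sln, sarcolipin, an inhibitor of the calcium pump (7046 to 23090.4 units), and Cacnb1, a subunit of the calcium channel that senses voltage (865 to 2022). In all, 3 of 22 members were at least 2-fold higher and 4 lower, with a median of -0.37. The calcineurin list, whose members couple nerve activity to slow gene expression, had 5 of 15 at least 2-fold lower and 0 higher. These were Rcan1, a target and inhibitor of calcineurin (8810.2 to 1917 units), the transcription factors Nfatc1 (2330.4 to 1045) and Nfatc2 (522 to 236), and the calcineurin-binding Z-disc proteins Myoz2 (40462 to 16648) and Myoz1 (7163 to 3424). Of 13 genes of the dystrophin complex and membrane repair, 1 was at least 2-fold higher and 2 lower. Dmd, dystrophin, was at 40.2 units in sham, under the floor, and 203 in denervated muscle, at least 2.57-fold higher. It was read by 1 probe set, which was under the floor on the control sham array too (11.8 units). How well that probe set reads the transcript of muscle was not tested. Cav3, muscle caveolin, was at 3255 and 1013 units and Trim72, a membrane repair protein, at 11327 and 4683.

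The myosin heavy chains set the speed of a fibre. Myh4, the fastest type IIb form, was at 144 units on the sham array and 11286 on the denervated array (78.6-fold higher), the highest ratio of any gene above the floor on both arrays. The other adult chains were lower on their brightest probe sets. Myh2, type IIa, was at 35566 and 15233 units, Myh1, type IIx, at 10072 and 5214, and the slow Myh7 at 46466 and 24104. Probe sets did not agree for Myh1, where 5 gave log2 ratios from -0.95 to 0.89, or for Myh7, where they gave -2.67 and -0.95. These genes are near-identical copies over much of their length, so the share of each in a signal is uncertain. The 250 bases before the start of Myh4 are shown because it had the highest ratio, with a MEF2 site in capitals:
Myh4, chr10:52421898-52422147, plus strand: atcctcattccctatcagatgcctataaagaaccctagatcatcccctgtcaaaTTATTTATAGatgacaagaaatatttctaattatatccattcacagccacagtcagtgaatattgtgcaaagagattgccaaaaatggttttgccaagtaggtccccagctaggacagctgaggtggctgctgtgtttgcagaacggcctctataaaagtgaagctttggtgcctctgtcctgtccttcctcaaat
That site, searched on both strands, was found in 3.07% of all promoters in the table, in 1.58% of those of measured genes, in 1.81% of those of genes at least 2-fold higher and in 3.72% of those of genes at least 2-fold lower. MEF2 factors are transcription factors of muscle.

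Slow light chains and slow troponins read lower on the denervated array. Myl2, the slow regulatory light chain, was at 36304 units on the sham array and 5870.0 on the denervated array (6.18-fold lower), and Myl3, the slow essential light chain, at 37585 and 14781 units. Tpm3, slow tropomyosin, was at 28499.8 and 836 units on its brightest probe set (34.1-fold lower), but its 12 probe sets ran from -5.09 to 0.01. All 6 measured slow troponins and partners lay below 0, 3 of them at least 2-fold, with a median of -0.99. The fast partners had a median of -0.46, which relative to all genes turned to 0.17 under quantile normalization, and went apart. Actn3, the alpha-actinin of fast fibres, was at 549 and 4156 units (7.57-fold higher), and Myoz3, a Z-disc protein of fast fibres, at 1952 and 129.5 (15.1-fold lower on this probe set). The other probe set of Myoz3 went from 124.1 to 9.7 units, under the floor, so its log2 ratio was -0.65 or lower.

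Sarcomere genes of the heart and of developing muscle had a median above that of all genes. Of 9 measured members 4 were at least 2-fold higher and 0 lower, with a median of 0.50. Tnnt2, cardiac troponin T, was at 548 units on the sham array and 5589 on the denervated array (10.2-fold). Ankrd1, a cardiac ankyrin repeat protein, went from 1319.9 to 8282 units, Mybph, myosin-binding protein H, from 646 to 3540.1, and Myl4, the atrial light chain, from 706 to 1926. Z-disc and M-line proteins went the other way, with 7 of 15 at least 2-fold lower and a median of -0.91. Examples are Myot, myotilin (32153 to 11859.9 units), Pdlim5 (28213 to 10789) and Ldb3, also known as Zasp (22803 to 6269.5, with 6 probe sets from -3.54 to -0.33). The -0.33 of Ldb3 is a bound, since that probe set was under the floor on the denervated array (99.2 to 33.5 units).

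Ankyrin and LIM proteins report stretch from the sarcomere to the nucleus. Ankrd2, which slow fibres express under stretch, was 71.7-fold lower. Lmcd1, a LIM protein that acts on calcineurin, was at 16873 units on the sham array and 2362 on the denervated array (7.14-fold lower), and Fhl2 at 2518 and 467 units (5.39-fold lower). Against them stood Ankrd1, Csrp2 (80.7 to 420.4 units) and Pdlim4 (91.0 to 299), so that 3 of 14 members were at least 2-fold higher and 5 lower. Tubulin genes exchanged places too. Tubb6 was at 492 and 3339 units (6.79-fold higher) and Tubb2a at 1266 and 4963 (3.92-fold higher), while Tuba8, an alpha tubulin of muscle and testis, was at 4352 and 695 (6.26-fold lower). Tubulins share long stretches of sequence, which leaves the split between them uncertain. Dclk1, a kinase that binds microtubules, was at 342 and 7657 units (22.4-fold higher on this probe set, log2 ratios of 1.95 to 4.48 over 3). Of 14 actin regulators 1 passed 2-fold, Acta2, smooth muscle actin (896 to 328 units). Their median of -0.14, relative to all genes, turned to 0.34 under quantile normalization.

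Protein breakdown involves ligases that tag proteins with ubiquitin, the proteasome, lysosomes and soluble proteases. Fbxo30, the ligase MUSA1 of atrophying muscle, was at 798 units on the sham array and 4774 on the denervated array (5.99-fold higher). Trim63, MuRF1, went from 4108 to 9397 units (2.29-fold), Fbxo31 from 1477 to 3399 (2.30-fold), and Fbxo32, atrogin-1, from 259 to 398 (1.54-fold). Asb2 (14733 to 5518 units) and the mitochondrial ligase Mul1 (489.8 to 197) were lower, so 3 of 15 ligases were at least 2-fold higher and 2 lower. None of the 26 proteasome genes passed 2-fold in either direction, but 21 were above 0, with Psmd2 the highest (5292 to 7835 units). In the immunoproteasome and antigen presentation list 13 of 14 lay above 0, 2 were at least 2-fold higher, and the median was 0.67. These were Psmb9, an inducible catalytic subunit (468 to 1301 units), and Tap2, a peptide transporter (230.0 to 564). Ctsl, the lysosomal cathepsin L, was at 4372 and 9448 units (2.16-fold higher). It was the 1 lysosomal gene of 17 past 2-fold (5.88%, near the 4.96% of all genes higher). Autophagy genes lay near the median of all genes (0.06), and the 2 past 2-fold were lower: Wipi1 (7514 to 3076 units) and Bnip3, a receptor for mitophagy (21315 to 9569.9). Capn3, the calpain of muscle, was at 4177 and 1475 units (2.83-fold lower), Casp12, a caspase, at 298 and 615 (2.06-fold higher), and Usp2, a deubiquitinase, at 1337 and 481.

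Growth signalling showed large differences in a few members. Fst, follistatin, which binds myostatin and activin, was at 276 units on the sham array and 2387 on the denervated array (8.64-fold higher), and Inhba, the activin A subunit, at 405 and 125 (3.24-fold lower). Mstn, myostatin, was under the floor on both arrays (18.0 and 59.8 units). In the list of these ligands and their antagonists 5 of 19 were at least 2-fold higher and 1 lower, among the former Tgfb2 (684 to 1665 units) and the BMP antagonist Chrd (196 to 471). Pik3r1, the regulatory subunit of PI3 kinase, went from 262 to 1178 units (4.49-fold) and Sesn3, a sestrin that restrains mTOR, from 165 to 477. Igf1 was at 1569 and 1509.9 units, a log2 ratio of -0.06, which turned to 0.43 under hybridisation control scaling and to 0.09 with the mean of its probe sets. Igfbp5, a binding protein of that ligand, was at 3181 and 9848 (3.10-fold higher, 0.61 to 2.14 in log2 over 4 probe sets). The 0.61 is a lower bound, since that probe set was under the floor in sham (66.1 to 120.6 units). Irs1, the insulin receptor substrate, was under the floor after denervation (164 to 32.6 units). Growth arrest genes were higher in 4 of 15 cases and lower in 0, with Gadd45a (786 to 9034 units, 11.5-fold), Cdkn1a, the cell cycle inhibitor p21 (907 to 9173, 10.1-fold), and Phlda3, an inhibitor of Akt (783 to 3288). Of 16 cell cycle genes 0 were at least 2-fold higher and 2 lower, Bub1 (298 to 119 units) and Mcm5 (182 to 81.4). Wnt genes held none past 2-fold in 15, and in the Notch list Hes6 was higher (566 to 1404 units) and the ligand Jag2 lower (186 to 84.5).

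Glutathione enzymes were the list with the second-highest median after the receptor subunits. Of 19 measured, 11 were at least 2-fold higher and 2 lower, with a median of 1.30. Gstt3 was at 140.1 units on the sham array and 3170.0 on the denervated array (22.6-fold higher). Mgst2, a membrane-bound transferase, went from 463 to 6754 units (14.6-fold), and Gstm2 from 174 to 2137 (12.3-fold). Mgst3, a relative of Mgst2, went the opposite way, from 22467 to 1568 units (14.3-fold lower), as did the mitochondrial Gstk1, from 1774 to 539. Members of the Gsta and Gstm families are close copies, so a probe set may read more than 1 of them. Of the 15 promoters found for these genes, 3 held the antioxidant response motif TGACNNNGC, searched on both strands. It stood in 10.2% of all promoters and 12.6% of those of measured genes. Among genes at least 2-fold higher 14.9% of 442 promoters held it, and among those lower 12.2% of 592. Nqo1, a quinone reductase and target of Nrf2, was at 1422 and 5142 units (3.62-fold higher), and Hmox1, haem oxygenase, at 228 and 789 (3.47-fold). Gpx1, the cytosolic glutathione peroxidase, was lower (26144 to 10201 units), and the whole antioxidant list of 20 lay at the median of all genes (0.01).

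Heat shock proteins protect other proteins from misfolding, and 7 of 19 were at least 2-fold lower and 0 higher, with a median of -0.51. Small heat shock proteins were among them. Hspb7 was at 18168 units on the sham array and 3697 on the denervated array (4.91-fold), Hspb6 at 29851 and 6828 (4.37-fold), and Hspb3 at 5097 and 1690.3 (3.02-fold). Hspa2, of the larger Hsp70 family, was at 1977 and 542 units (3.65-fold lower). The chaperones of the endoplasmic reticulum had a median of 0.13. Herpud1, which helps remove misfolded proteins there, was the 1 member of 18 past 2-fold (2969.9 to 6525 units). That share of 5.56% is near the 4.96% of all genes higher. In the list of the stress factor ATF4, its target Trib3 was higher (91.8 to 431 units), while Ddit3 (2149.7 to 809.5) and the alanyl-tRNA synthetase Aars1 (4341 to 2102) were lower.

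Ribosomal proteins held an exchange between a pair of paralogues. Rpl3l, the muscle form of ribosomal protein L3, was at 16017 units on the sham array and 4688 on the denervated array (3.42-fold lower), and Rpl3, the general form, at 7201 and 16337 (2.27-fold higher, and 0.68 in log2 on its other probe set). They were the 2 of 24 cytosolic ribosomal genes past 2-fold. Of the rest, all but 1 lay slightly below 0, and the list median of -0.22, relative to all genes, turned to 0.29 under quantile normalization. Ribosome biogenesis genes were above 0 in 16 of 19 cases, with Myc, the transcription factor that drives this pathway, at 146 and 421 units (2.89-fold higher). Mitochondrial ribosomal proteins were all below 0 (28 of 28), 4 of them at least 2-fold, led by Mrpl12 (8151 to 2817 units, 2.89-fold lower).

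Genes of mitochondrial energy supply made up the lowest lists. In respiratory complex I, which takes electrons from NADH, 21 of 31 measured subunits were at least 2-fold lower and 0 higher, against 6.57% of all genes lower, with a median of -1.21. Ndufb8 was the lowest, at 3618 units on the sham array and 899 on the denervated array (4.03-fold), and Ndufb5 went from 29301 to 9977 units. Complexes II to IV had 19 of 24 at least 2-fold lower and a median of -1.14, with Cyc1, cytochrome c1, at 19622 and 6844 units and Cox5b, a cytochrome oxidase subunit, at 23788 and 8593. ATP synthase had 10 of 14 and a median of -1.16. Each of these medians remained below that of all genes under every scaling tried. Perm1, a regulator of oxidative metabolism in muscle, was at 9059 units on the sham array and 104 on the denervated array (86.8-fold lower), the lowest ratio among genes above the floor on both arrays. Its partners were lower by less: Esrra, the oestrogen-related receptor alpha, went from 1361 to 417 units, the deacetylase Sirt3 from 1989 to 589, and Ppargc1a, the coactivator PGC-1alpha, from 1352 to 785 (1.72-fold).

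**Figure D3:**
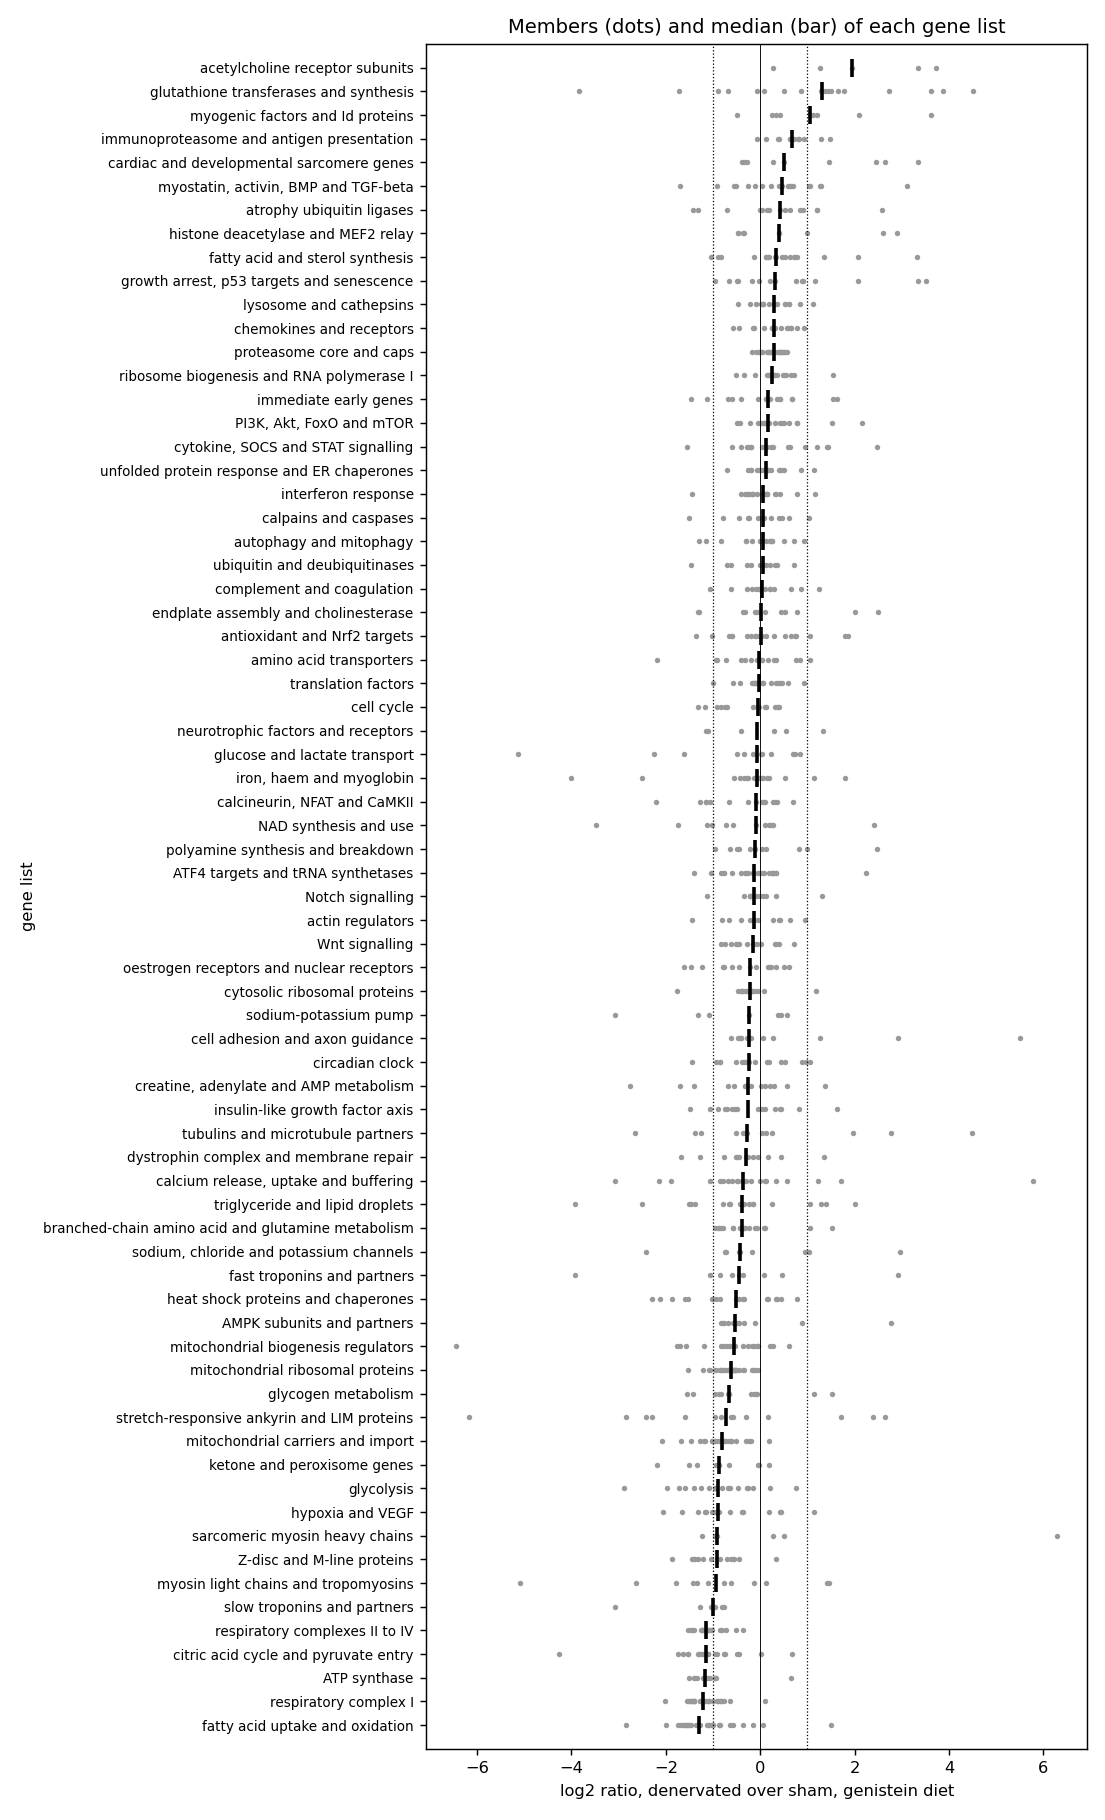
Log2 ratio of denervated over sham on the genistein diet for the 71 gene lists of fibre functions, with a dot for each measured member, a black bar for the list median and dotted lines at 2-fold. The bars run from 1.94 for the acetylcholine receptor subunits to -1.30 for fatty acid uptake and oxidation. With hybridisation control scaling all dots shift up, and the median of all genes becomes 0.48; relative to all genes, quantile normalization turns the bars of actin regulators, cytosolic ribosomal proteins and fast troponins.

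Transcripts for several fuels were lower. Pyruvate enters mitochondria through a carrier of 2 subunits, and both were lower: Mpc1 was at 21657 units on the sham array and 5137 on the denervated array (4.22-fold), and Mpc2 at 12859.7 and 4045 (3.18-fold). The citric acid cycle list had 14 of 22 at least 2-fold lower. Acss1, which makes acetyl-CoA from acetate in mitochondria, was at 2577 and 134 units (19.3-fold lower). Fatty acid uptake and oxidation had 21 of 29 at least 2-fold lower and 1 higher, with a median of -1.30, the lowest of all lists. Hadh, a dehydrogenase of beta-oxidation, was at 12573 and 1764 units (7.13-fold lower), and Acadm, the medium-chain dehydrogenase, at 16073 and 4798. The exception was Ucp3, the uncoupling protein of muscle (1367 to 3839.8 units, 2.81-fold higher, with 0.57 in log2 on its other probe set). Lower among ketone genes were Oxct1, the transferase that activates ketone bodies (18195 to 3968 units), and Bdh1 (224 to 77.8).

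Sugar and lactate transporters included some of the largest differences. Slc16a3, the lactate exporter MCT4, was at 3041 units on the sham array and 87.2 on the denervated array (34.9-fold lower), and Slc16a1, the lactate transporter MCT1, at 7592 and 2478 (3.06-fold lower). Emb, a partner of such transporters, was 45.4-fold higher, as given above. Slc2a4, the insulin-responsive glucose transporter, went from 12081 to 2526 units (4.78-fold lower). Of 18 glycolysis genes 7 were at least 2-fold lower and 0 higher, led by Pfkfb1, which sets the level of a phosphofructokinase activator (1744 to 237 units). Glycogen genes parted: Ugp2, which makes UDP-glucose, and the synthase Gys1 were lower (22884 to 7848 and 4164 to 1543 units), while Stbd1, which binds glycogen, and Phkb, a phosphorylase kinase subunit, were higher (1824 to 5240.1 and 3189 to 6985). Prkag3, the gamma subunit of AMP-activated kinase found in fast muscle, was at 841 and 5705 units (6.78-fold higher). It was the 1 gene past 2-fold in a list of 12 (8.33%, against 4.96% of all genes higher). Ckmt2, mitochondrial creatine kinase, was at 37516 and 5522 units (6.79-fold lower), and Ampd3, an AMP deaminase, went from 3609 to 9411 (2.61-fold higher).

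Lipid storage and lipid synthesis moved differently from oxidation. G0s2, an inhibitor of the lipase that opens lipid droplets, was at 5349 units on the sham array and 353 on the denervated array (15.2-fold lower), and Plin4, a droplet coat protein, at 3662 and 645 (5.68-fold lower). Plin2, another coat protein, was higher (4491 to 10921 units), as was Mgll, which cleaves the last fatty acid from glycerol (395 to 1586). The list thus had 4 of 19 at least 2-fold higher and 5 lower. In fatty acid and sterol synthesis 15 of 19 genes were above 0, 3 at least 2-fold higher and 1 lower. Scd, the stearoyl-CoA desaturase, was at 152 and 1528 units (10.1-fold higher), Lss, lanosterol synthase, at 227 and 956 (4.21-fold) and Fasn, fatty acid synthase, at 281 and 713 (2.54-fold). Acaca, acetyl-CoA carboxylase, was lower (1601 to 781 units, with 0.02 in log2 on its other probe set). Acsl4, which activates arachidonic acid, was at 1014 and 10471 units (10.3-fold higher), and Apod, a lipid-binding lipocalin, at 102 and 967 (9.46-fold).

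Iron, NAD and amino acid genes had single members with large differences. Tfrc, the transferrin receptor that brings iron into the fibre, was at 13632 units on the sham array and 845 on the denervated array (16.1-fold lower), and Alas1, the first enzyme of haem synthesis, at 3866 and 680.2 (5.68-fold lower). The iron exporter Slc40a1, ferroportin, was higher (419.8 to 924 units). Nmrk2, the muscle kinase that makes NAD from nicotinamide riboside, was at 4458 and 402 units (11.1-fold lower), Nmnat3, an enzyme of the next step, at 1001 and 301, and Aox1, aldehyde oxidase, at 199.8 and 1057 (5.29-fold higher). Branched-chain amino acid and glutamine genes lay below 0 in 17 of 21 cases, with a median of -0.40. Ivd, isovaleryl-CoA dehydrogenase of leucine breakdown, was at 5728 and 2939 units, a log2 ratio of -0.96. The 2 members past 2-fold were higher. They were Glul, glutamine synthetase (2667 to 5518 units, with 0.50 and 0.75 in log2 on its other probe sets), and Gpt2, an alanine aminotransferase (80.4 to 231, with 0.07 in log2 on its other probe set). Among 16 amino acid transporters, Slc38a3, which carries glutamine, was at least 2-fold lower (642 to 141 units) and Slc7a6 higher (519 to 1084). Each is 6.25% of the list, near the 6.57% of all genes lower and the 4.96% higher. Sat1, the enzyme that marks polyamines for breakdown, was at 1011 and 5609.6 units (5.55-fold higher), and Odc1, which starts their synthesis, at 6587 and 3386 (log2 ratio -0.96).

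Genes of hypoxia and vessel growth were lower, with 6 of 16 at least 2-fold lower, 1 higher and a median of -0.90. Vegfa, the main growth factor for vessels, was at 3391 units on the sham array and 814 on the denervated array (4.17-fold lower), Vegfb at 2574 and 820.2 (3.14-fold lower) and Epas1, the factor HIF-2alpha, at 5249.5 and 2338. Adm, adrenomedullin, was the exception (85.2 to 187 units). Of the nuclear receptors, Nr4a1 was at 662 and 215 units (3.08-fold lower) and Nr0b2 at 393 and 142. Esr1, oestrogen receptor alpha, to which genistein can bind, was under the floor on both arrays (8.0 and 7.9 units). Immediate early genes parted, with Junb higher (149 to 464 units) and Jund and the phosphatase Dusp1 lower (3616 to 1644 and 2992 to 1079.6). In cytokine signalling, 4 of 20 genes were at least 2-fold higher, among them Il6st, the shared receptor gp130 (2428 to 6570.0 units), and the kinase Jak2 (234 to 623), while the receptor Tnfrsf12a, Fn14, was lower (2811 to 961). Of 21 interferon response genes 1 was at least 2-fold higher, near the 4.96% of all genes, and 1 lower. These were the transcription factor Irf1 (337 to 757 units) and the antiviral Mx2 (275 to 101), and none of 16 chemokine genes passed 2-fold. In the clock list Npas2 was lower (411 to 151 units) and Rora higher (369.9 to 774). The other probe set of Rora was under the floor after denervation (108.0 to 73.7 units), with a log2 ratio of -0.45 or lower.

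Several of the highest ratios belonged to genes outside these lists. Klk1, tissue kallikrein, a protease that releases kinins, was at 115 units on the sham array and 2977 on the denervated array (25.9-fold higher). Sncg, gamma-synuclein, went from 799.7 to 12992 units (16.2-fold), and Adap2, a regulator of Arf proteins, from 219.9 to 3577 (16.3-fold). Ppp1r14c, an inhibitor of protein phosphatase 1, went from 113 to 2005 units (log2 ratio 4.14), with at least 3.15 on its other probe set. Among transcription factors Irx3 was at 259.5 and 3147 units, Tgif1, a repressor of the Smad pathway, at 322 and 2480.3, and Sox4 at 633 and 4817 (0.13 to 3.19 in log2 over 6 probe sets). The 0.13 of Sox4 is a lower bound, since that probe set was under the floor in sham (74.6 to 86.1 units). Nars2, a mitochondrial tRNA synthetase, was higher (219.8 to 1862 units, 8.47-fold), although the mitochondrial ribosome was lower. Paqr8, a membrane receptor for progesterone, went from 236 to 2200.5 units (from at least 1.18 to 3.22 in log2 over 3 probe sets). The other genes among the 30 highest were Tmem100, Armc9, Aif1l, Adam19 and Akip1, whose probe sets spread by more than 2 log2 units each. For each of them the lowest probe set was under the floor in sham, so its ratio is a lower bound and the true spread may be smaller.

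The lowest ratios outside the lists also named enzymes and structural genes of muscle. Car14, a carbonic anhydrase of the muscle membrane, was at 2466 units on the sham array and 103 on the denervated array (24.0-fold lower), and Mettl21c, a muscle methyltransferase, at 4379 and 287 (15.3-fold lower). Lrrc39, a protein of the M-band, went from 10195 to 952 units, Itgb1bp2, the mechanical sensor melusin, from 4639 to 507, and Vgll2, a muscle partner of TEAD factors, from 4566 to 434. Dhrs7c, an enzyme of the sarcoplasmic reticulum, was at 6744 and 618 units, Cda, cytidine deaminase, at 1890.2 and 176, and Pank1, which starts coenzyme A synthesis, at 2329 and 257. A receptor component and an endothelial proteoglycan were among them as well, and which cells gave their signals was not tested. Ramp1, part of the receptor for the nerve peptide CGRP, was at 4012 and 289 units (13.9-fold lower), and Esm1, an endothelial proteoglycan, at 2437 and 259.5 (9.39-fold lower). The remaining genes of the 30 lowest were Endou, Palldl1, Slc41a3, Gadl1, Vtcn1, Ppm1j and Dffa, 7.94-fold to 17.1-fold lower.

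Whole muscle holds other cells, and in a pooled extract fewer cells of a type and less RNA per cell cannot be told apart. Fibroblast and collagen genes had a median of -0.72, with 3 of 21 at least 2-fold lower, and their summed signal was 67066 units in sham and 47958 in denervated muscle. Col1a1, the main chain of type I collagen, was at 3599 and 937 units (3.84-fold lower). Matrix glycoproteins had 3 of 28 at least 2-fold lower, among them Fmod (3401 to 1256 units) and Postn, periostin (4739 to 1887). Of 18 matrix proteases and crosslinkers 2 were at least 2-fold lower, led by Adamts8, a secreted protease (1950.4 to 105 units, 18.5-fold), and 1 was higher, Plod2, a lysyl hydroxylase of collagen (1052 to 2247). Endothelial markers had a median of -0.35 and 1 of 17 at least 2-fold lower (sums 9616 and 8037 units), and smooth muscle and pericyte markers a median of -0.42 with 3 of 15 (sums 29533 and 20814). Macrophage and leukocyte markers lay at the median of all genes (0.02, sums 11746 and 11764 units), and Itgax was under the floor on every array. At least 2-fold higher was 1 of 18 (5.56%), near the 4.96% of all genes. This was Aif1 (218 to 445 units), whose other probe set, under the floor in sham, gave at least 0.11 in log2. Of 17 lymphocyte, granulocyte and mast cell markers on the array 8 were above the floor on any array, and Cd3d, Cd3e, Cd8a, Cd79b and Ms4a1, markers of T and B cells, were under it on all. The T cell markers Cd3g (179 to 95.6 units) and Cd4 (120.5 to 78.3, the latter under the floor) were read in sham. The summed signals of the 8 markers above the floor on any array were 1195 units in sham and 1231 in denervated muscle.

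Lists of fat and nerve markers had members that were higher. Adipocyte markers had a median of 0.78, with 5 of 12 at least 2-fold higher, among them Rbp4, a retinol carrier (90.4 to 279 units), Plin1, the droplet coat of fat cells (98.8 to 259), and Cfd, adipsin (704 to 1663). Aqp7, a glycerol channel, was 6.25-fold lower (1589 to 254 units), so the list's sum was lower (44394 to 33219 units) while its median was above 0, and Lep, leptin, was under the floor on every array. With a floor at the 60th percentile the list median less that of all genes was -0.0002. Of 10 Schwann cell and nerve markers 4 were at least 2-fold higher: Ncam1, which the fibre itself also makes, Nefm, a neurofilament (64.2 to 280.3 units), Cnp, an enzyme of myelinating cells (1103 to 3177), and Mbp, myelin basic protein (74.1 to 168). The list's sum was 5972 units in sham and 13628 in denervated muscle. Within that sum Ncam1, not particular to nerve or Schwann cells, went from 666 to 5013 units. Sox10, Ngfr, Nefl and Nefh were under the floor on all arrays. Satellite cell markers had 8 of 9 below 0 and none past 2-fold (sums 24175 and 16222 units), tendon markers a median of -0.33 (2 of 6 at least 2-fold lower, sums 14133 and 11796), and erythrocyte markers -0.22 over 5 genes, which relative to all genes turned to 0.04 under quantile normalization. The part of these cells in the differences given above was not tested.

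**Figure D4:**
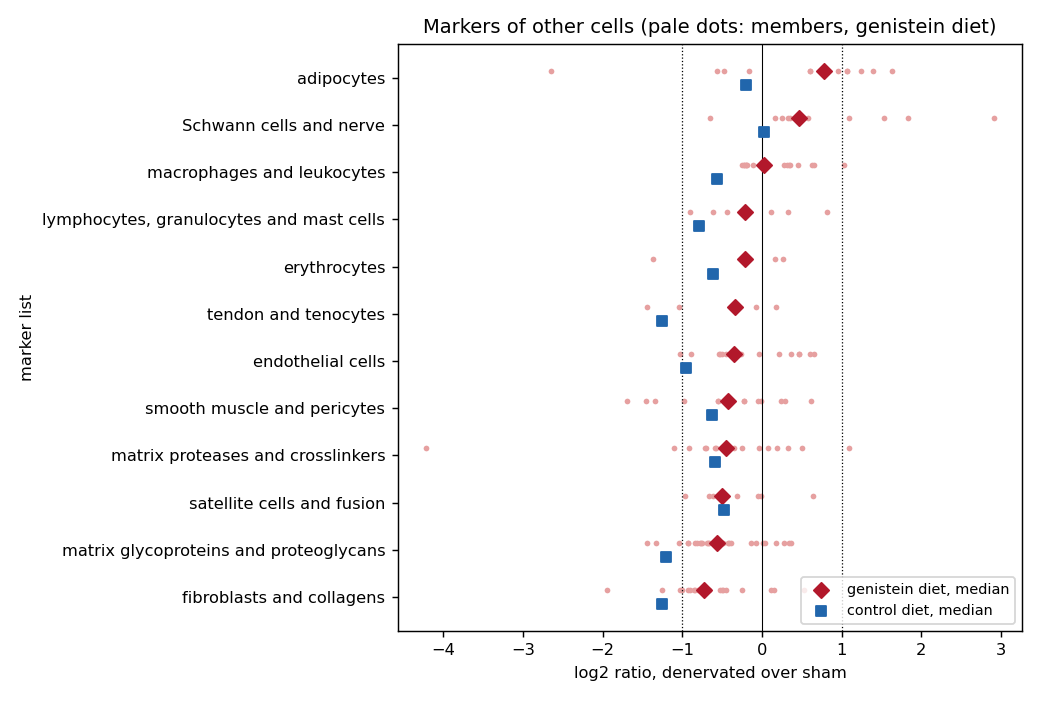
Log2 ratio of denervated over sham for 12 lists of genes that mark other cells or the matrix, with pale dots for members on the genistein diet, a red diamond for their median and a blue square for the median on the control diet. Diamonds run from 0.78 for adipocytes to -0.72 for fibroblasts and collagens. With hybridisation control scaling all points shift up, and the median of all genes becomes 0.48 on the genistein diet; relative to all genes, the erythrocyte diamond turns under quantile normalization and without a floor, and the adipocyte diamond with a floor at the 60th percentile.

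The control diet arrays, which share no array with the genistein comparison, gave 542 higher (5.04%) and 821 lower genes (7.63%) of 10755, 12.7% in either direction. Of the genistein genes, 374 that were at least 2-fold higher (69.8%) and 513 that were at least 2-fold lower (72.3%) passed the same size on the control diet, and 0 passed it in the opposite direction. These shared genes are 69.0% and 62.5% of the control diet's own. Among 9362 genes that exceeded the floor on each of the 4 arrays, the difference between the diets' log2 ratios had an SD of 0.38. It reached 1 or more in 144 genes with genistein higher and 49 with genistein lower. Without replicates none of these differences between diets was tested.

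Ratios of single genes differed in size between the diets. Chrne was under the floor on both control arrays (41.6 and 75.0 units). On the control diet Myh4 went from 82.0 to 18730.3 units, a log2 ratio of 7.84 against 6.30 on genistein. Its control sham signal lay just above the floor of 78.9 units, which limits that ratio, and its genistein sham signal was 143.5. Actn3 went from 230.1 to 7988 units on the control diet (5.12 against 2.92), and Mybpc2, fast myosin-binding protein C, from 199 to 1243 (2.64 against 0.46). In each of these 3 the genistein sham array read above the control sham array, and the genistein denervated array below the control one. Other genes of fast fibres were divided in this. Atp2a1 and Myoz1 shared it, with log2 ratios of -0.29 and -0.80 on the control diet against -0.86 and -1.065 on genistein. Pvalb did not (4.93 with the control diet against 5.77 with genistein), nor did Prkag3 (2.82 against 2.76). The fast troponin list, which itself holds Actn3, Mybpc2, Atp2a1 and Myoz1, had medians of -0.37 and -0.46. Scd went from 130.1 to 501 units on the control diet (1.95 against 3.33) and Fasn from 289 to 348 (0.27 against 1.34), so the difference lay in the denervated arrays. For Mybph the difference lay in sham muscle, with 3597 units for the control diet against 646 for genistein, and 2924 and 3540.1 after denervation. Fibroblast and collagen genes were at least 2-fold lower in 14 of 21 on the control diet and 3 of 21 on genistein, and endothelial markers in 8 of 16 and 1 of 17. Of all genes 7.63% were lower by this size on the control diet and 6.57% on genistein, and the endothelial share on genistein is near the latter. Their summed signals on the control diet went from 65988 to 29234 and from 9448 to 5161 units. The 3′ to 5′ actin ratio went from 2.08 to 3.79 between the control arrays and from 2.32 to 2.76 between the genistein arrays, and its part in these differences was not tested.

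**Figure D5:**
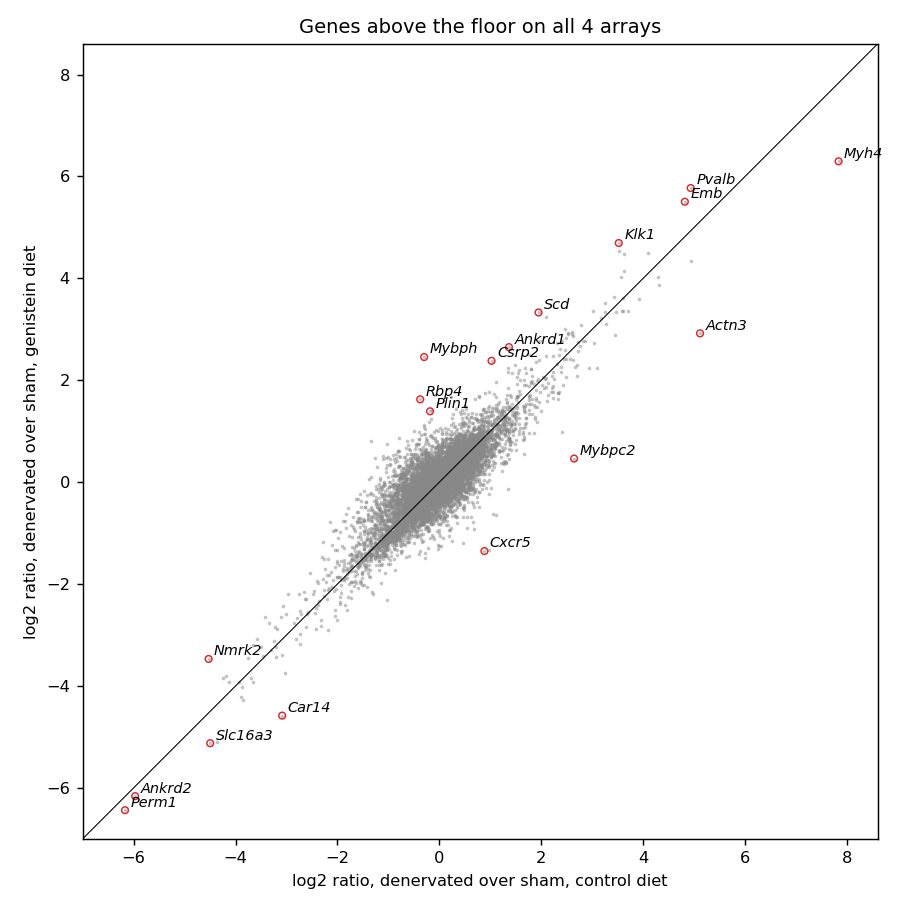
Log2 ratio of denervated over sham on the control diet (x axis) and the genistein diet (y axis) for 9362 genes that exceed the floor on each array. The line marks equal ratios; Myh4 lies at 7.84 and 6.30, Actn3 at 5.12 and 2.92, and Mybph at -0.30 and 2.46.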

How the data were processed

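The deposited values are linear signal intensities, 1 for each probe set on each array, made by the authors with GCOS version 1.1, per the submitters' processing notes, which name the tool and not its settings. RNA was labelled by the GeneChip 3′ IVT route with biotin, per the labels' protocols. The mean intensity after trimming 2% at each end was 500 on all 4 arrays, and no further scaling was applied. Of 31099 probe sets 57 were controls, and the platform annotation gave 1 symbol to 20826, several to 436 and none to 9780. Of the 20826, 20758 matched RefSeq's GRCr8 annotation, with 0 symbols updated.

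From these, log2 ratios were computed (Python 3.11.15, pandas 2.3.3, numpy 2.4.6). Signals were first raised to a floor, the 40th percentile over all arrays, control probe sets left out. Where a gene had several probe sets, the brightest by mean log2 signal was used. A fold with 1 side under the floor is a lower bound, written "at least". Log2 ratios given as ranges over probe sets, and list medians, can hold such bounds without that wording. The calculation was tested on simulated data.

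There were 83 gene lists of 1551 distinct symbols, of which 1375 were on the array, and 337 of the 1246 genes past 2-fold are in a list. Genes were named from the 30 highest and 30 lowest ratios above the floor on both arrays, the 15 brightest genes under the floor on 1 side in each direction, up to 4 members of each list with the largest ratios and any member 2-fold against its list, a short fixed set of muscle genes, and the 12 largest diet differences in each direction. The members and lists were chosen with earlier results of these data known. Lists are described by counts and medians, with no test. The alternatives were other scalings (median, quantile, hybridisation controls), other floors, a pseudocount of 16 with no floor, the mean of probe sets, and sizes of 1.5-fold and 3-fold. The number of arrays limits the precision.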

Additional observations from a re-analysis of the deposited data

Results flagged for a closer look

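Some results stood out because denervation gave opposite signs on the genistein and the control diet, apart by at least 2 SDs of the scatter between probe sets. With 1 array per group these differences were not tested. The adipocyte list had a median log2 ratio of 0.78 on genistein and -0.20 on the control diet. Of fat cell genes, the retinol carrier Rbp4 was at 1.63 and -0.38, the droplet coat Plin1 at 1.39 and -0.18, and adipsin, Cfd, at 1.24 and -0.17. Aqp7 of that list was at -2.64 on genistein, and 4 of 12 members lay below 0. The list's summed signal was lower in denervated muscle on both diets (44394 to 33219 units on genistein, 54071 to 37838 on the control diet). With a floor at the 60th percentile the list median on genistein less that of all genes was -0.0002. Of sarcomere and LIM genes, Mybph was at 2.46 and -0.30, and Pdlim4 at 1.71 and -0.10. Mymk, which drives myoblast fusion, was at 0.65 and -0.36.

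A few endothelial genes were above 0 on genistein and below 0 on the control diet: Cldn5, a junction protein, at 0.60 and -0.37, Sox18 at 0.47 and -1.26, and Tie1 at 0.46 and -1.11. Leukocyte genes with the same pattern were Ptprc, CD45, at 0.63 and -0.26, Coro1a at 0.45 and -0.42, and Cd53 at 0.51 and -1.10. The endothelial marker list as a whole had a median of -0.35 on genistein, with 11 of 17 members below 0, and -0.95 on the control diet. The macrophage and leukocyte list had a median of 0.02 on genistein, with 9 of 18 below 0, and -0.57 on the control diet. The coagulation starter F3 was at 0.87 and -0.09, the protease receptor F2rl1 at 0.76 and -1.02, and the glucose transporter Slc2a3 at 0.85 and -0.39. The sphingosine phosphate transporter Spns2 was at 0.81 and -1.35, Smap2 at 0.87 and -0.80, the calcium channel Orai2 at 1.42 and -0.14, and Tcaf1 at 0.30 and -1.23. The 2 probe sets of Ptprc ran from -0.32 to 0.63 on genistein, the 2 of Spns2 from -0.50 to 0.81 and the 3 measured of Smap2 from -0.70 to 0.87. The -0.50 of Spns2 is a bound, since that probe set was under the floor after denervation (111.6 to 76.9 units).

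Genes with the opposite signs were Capn6 (-0.78 and 0.05), Nr4a3 (-0.79 and 0.05), Ins1 (-1.32 and 0.98), Cxcr5 (-1.35 and 0.88), Plagl2 (-0.64 and 1.12), Slc9a8 (-0.62 and 1.05), Lrrc46 (-1.19 and 0.47), Dpyd (-0.91 and 0.68), Phf1 (-0.13 and 1.35) and Msln (-0.91 and 0.54). The brightest of these signals was that of Cxcr5 on the genistein sham array (431 units). On genistein Capn6 (135.9 to 38.9 units) and Nr4a3 (136.5 to 73.6) were under the floor after denervation, so their ratios are bounds. With hybridisation control scaling the genistein ratio of Phf1 turned to 0.36, and with the mean of probe sets that of Smap2 turned to -0.04.

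Outside the named genes, 5001 probe sets without a listed gene were measured on the genistein arrays. Past 2-fold, 320 had the higher signal in denervated muscle (6.40%) and 232 the lower (4.64%).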

How the results depend on the processing

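The genistein counts were 536 higher and 710 lower genes, 43.0% of them higher. Under median scaling they were 502 and 735, under quantile normalization 494 and 700, averaging a gene's probe sets 487 and 661, and with a floor at the 60th percentile 370 and 546. Counts moved by over 1.5 times under hybridisation control scaling (1784 higher and 262 lower, 87.2% higher), which moved the median of all genes to 0.48, with a floor at the 20th percentile (817 and 1088) and with a pseudocount of 16 and no floor (884 and 1092). At 1.5-fold they were 1565 and 1663 and at 3-fold 184 and 207. On the control diet the count in either direction of 1363 became 2127 with a floor at the 20th percentile, 2217 with the pseudocount, 3414 at 1.5-fold and 420 at 3-fold. List medians less the median of all genes changed sign for actin regulators (0.34), cytosolic ribosomal proteins (0.29), erythrocytes (0.0436) and fast troponins (0.17) under quantile normalization, for erythrocytes without a floor (0.0650) and for adipocytes with a floor at the 60th percentile (-0.0002). The cause was not tested. No named gene past 2-fold changed sign under any alternative. Ratios of genes near the floor are limited by low signal, and no alternative stands in for the replicates these pools lack. No paired analysis was possible because each group has 1 array: the pools of a diet are matched by animal, but the genistein comparison holds a single such pair.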
